A study of Mus musculus with 7 samples.

Results

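The genes of the proteasome were taken by name from the deposited expression tables, as every entry whose symbol begins with Psma, Psmb, Psmc, Psmd, Psme, Psmf or Psmg and a digit. The rule found 50 of the 25912 entries listed, each once. The tables hold Smart-seq2 libraries of 10 mouse oocytes each, on a C57BL/6 background, collected from 4-week-old females primed with PMSG. The 2 GV libraries are of fully grown oocytes arrested at the germinal vesicle stage, for which the labels list no treatment although the study's methods describe DMSO for GV controls as well. The 3 MII libraries with DMSO are of control oocytes at metaphase II after maturation in culture, and the 2 MII libraries with BYBX are of oocytes matured with BYBX, a ligand that stabilises RNA G-quadruplexes (rG4s), 4-stranded structures of guanine-rich RNA. The study reports that fewer oocytes released a polar body as the concentration of BYBX rose. Those that reached MII with BYBX had abnormal spindles, so the MII groups may differ in maturation. The labels and methods give no dose of BYBX for these libraries, but where the study's figure legends combine such Smart-seq2 levels with ribosome profiling, the treatment is 1 μM. Nothing states that the pools came from separate animals, so the p-values measure only the spread between these libraries, which may be technical.

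The proteasome is the barrel-shaped protease that degrades proteins tagged with ubiquitin. Its 20S core is a stack of rings of alpha subunits (Psma genes), which gate the entry, and of beta subunits (Psmb genes), of which Psmb6, Psmb7 and Psmb5 carry the active sites. The 19S regulatory particle sits on the core. Its base holds the ring of ATPases (Psmc genes) that unfold the substrate, and scaffold and ubiquitin-receptor subunits. Its lid holds the enzyme that removes ubiquitin. Assembly chaperones, alternative activators (Psme genes) and an inhibitor (Psmf1) complete the family. In maturing oocytes the proteasome is known for destroying cyclin B and securin at the exit from metaphase, and since fully grown oocytes are transcriptionally silent, their transcripts are a store laid down during growth.

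By role the 50 genes comprise 14 constitutive core subunits, 5 tissue-specific core subunits, 17 subunits of the 19S particle, 4 chaperones of the core, 3 chaperones of the 19S particle, 5 alternative activators, the inhibitor and Psmc3ip. Psmc3ip fits the name rule but is no proteasome subunit. It encodes a recombination factor of meiosis. Its values are given apart, but it is included in the counts and medians over all tested genes of the name rule. Of the 50, 43 reached a mean over the 3 groups of at least 1 FPKM and were tested, and all 31 subunits of the constitutive core and the 19S particle were among them. The 7 others were Psma8, Psmb8, Psmb9, Psmb10, Psme1, Psme2 and Psmg2, whose highest value in any library was 1.28 FPKM (Psme2, first GV library).

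The deposited values were scaled by the authors to an external RNA spike-in, and their total differed between the groups. It was 402113 to 489569 FPKM in GV, 109732 to 127254 in MII with DMSO and 201482 to 246710 in MII with BYBX. In log2(FPKM + 1), the median of the 9202 tested entries moved by -1.83 from GV to MII with DMSO and by 0.84 from DMSO to BYBX, and values of single genes are given against that shift. Each library was made from 10 oocytes by design, and in a pool, cells lost in handling and less RNA per cell cannot be told apart. The summed level of 14 oocyte markers was 12923 to 17055, 3146 to 3957 and 7563 to 8360 FPKM in the same order of groups, and that of 15 granulosa and cumulus cell markers 10.1 to 17.8, 2.42 to 2.80 and 4.39 to 5.27. Of these 15, 11 were never over 1 FPKM, Amh and Fshr among them. Inha, Cyp19a1, Nr5a2 and Kitl exceeded it, with highest values of 5.48, 4.49, 4.43 and 1.12 FPKM, all in the first GV library. All of 7 leukocyte markers together stayed at or under 1.77 FPKM and 6 erythrocyte markers at or under 1.20. Their part in the results was not tested.

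In GV oocytes the subunits of the 20S core and the 19S particle had a similar level in sum. FPKM is per transcript length, so levels can be compared between genes, but unique mapping lowers those of genes with near-identical copies. Of the 75-base stretches of the Psma3, Psmd2, Psma4 and Psmd11 transcripts, 21.3%, 15.1%, 12.9% and 9.19% also occur in transcripts of other genes. Their levels are uncertain, and such shares are given below for some other genes. The 14 core genes summed to 1759 and 1690 FPKM and the 17 genes of the 19S particle to 2068 and 1679. The single levels spanned from 5.27 and 5.57 FPKM for Psma3 to 598 and 524 for Psmd4, a ubiquitin receptor of the 19S base. After Psmd4, the highest group means were those of Psma7 (345 ± 24.5 FPKM, SD, n = 2), Psmd8 (336 ± 42.6) and Psmb2 (303 ± 5.02). The libraries of Psmd8 overlapped with those of Psma7, and its lower value equalled the higher one of Psmb2 when both are rounded to 306 FPKM. No subunit of the core or the 19S particle was under 1 FPKM in a GV library. The order was close to the same in both libraries, with a Spearman rho of 0.958 across the 31 genes, which are not independent replicates.

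**Figure D1:**
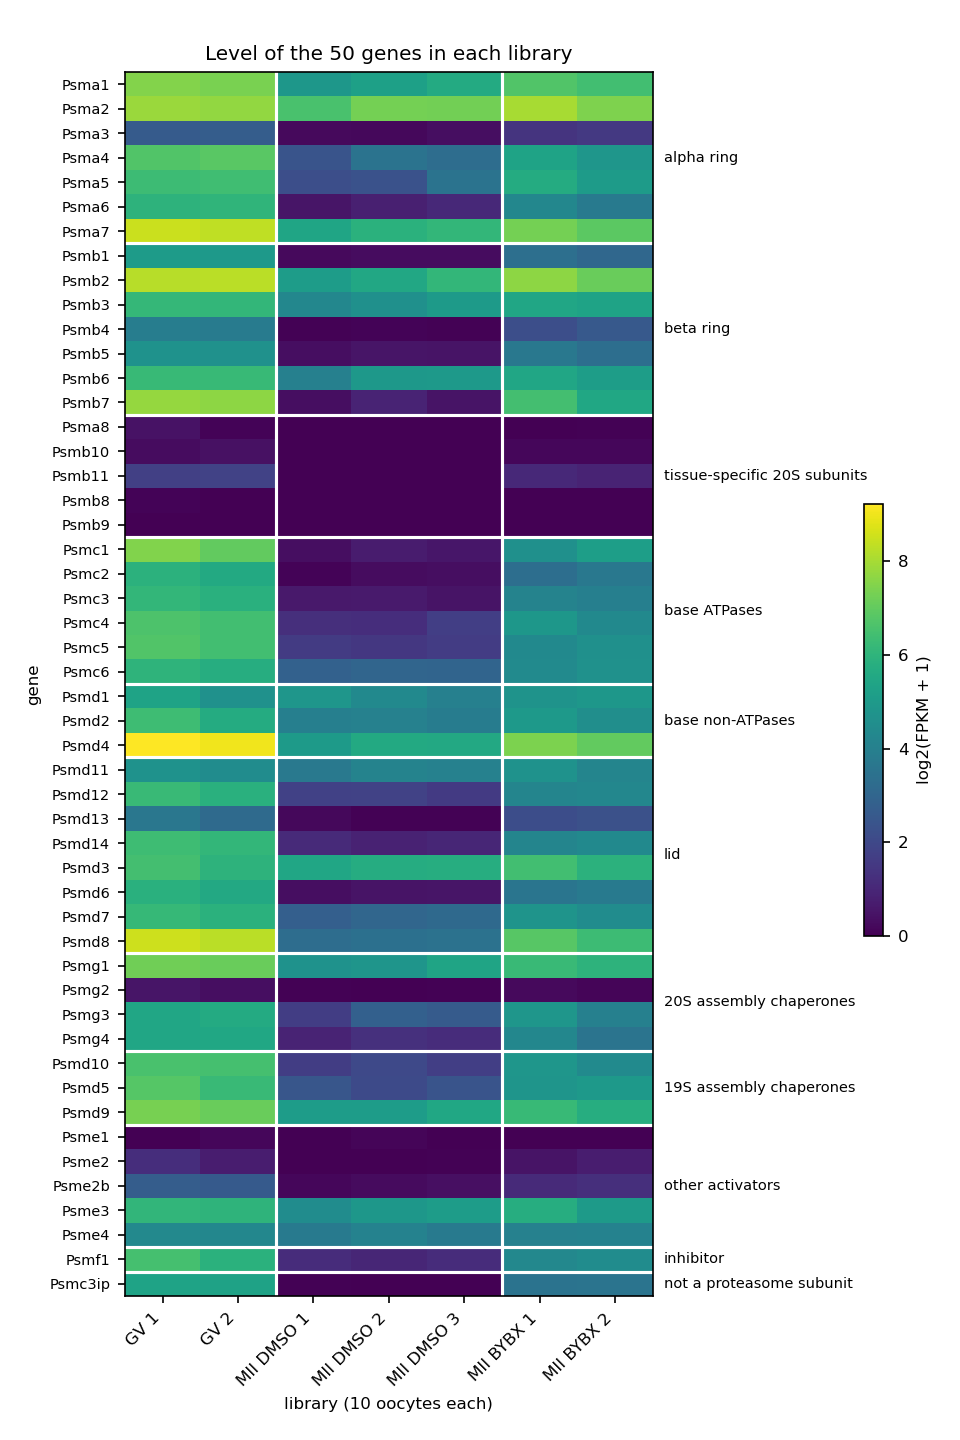
Level of each of the 50 genes (rows, by role) in each of the 7 libraries (columns), in colour as log2(FPKM + 1). The columns of MII with DMSO are dark for most genes and stay bright for a few, such as Psma2, Psmb2 and Psmd3, and the columns of MII with BYBX lie between them and the GV columns for most genes.

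The first comparison was that of MII oocytes with DMSO against GV oocytes, the change across meiotic maturation. Of the 43 tested genes, 40 were lower in MII with DMSO and 0 higher (limma, Benjamini-Hochberg adjusted p under 0.05). Of all 9202 tested entries, 88.3% were lower and 0.272% higher, so the share of 93.0% among the 43 genes, Psmc3ip included, was close to the background. The 3 genes that did not pass were Psmd1, Psmd3 and Psme4. The median change was -3.67 on the log2(FPKM + 1) scale, against -1.83 over all tested entries. Over all 50 listed genes, with no filter, the median change was -2.98. The 43 genes had a median level of 73.8 and 62.0 FPKM in the GV libraries, while the tested entries reach down to a mean of 1 FPKM. Changes of low entries are understated on this scale, here and in the comparisons below. In 42 of the 43 genes every library of MII with DMSO was under every GV library, as in 92.5% of all entries, and the exception was Psmd1.

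The split between lower and higher depended on the scale. With every library brought to the same total FPKM, 31 of the 43 genes were lower and 6 higher, beside 49.5% and 23.3% of all entries. With the median log2 value of the tested entries made equal in every library, 26 were lower and 9 higher, beside 26.7% and 48.8%. The 6 genes higher at the same total were Psma2, Psmd1, Psmd3, Psmd11, Psme3 and Psme4, and Psmb3, Psmb6 and Psmb11 joined them after median centring. All 9 had a change on the deposited scale that was nearer to 0 than the median entry, and the direction of 8 of them turned on both other scales, while that of Psmb11 turned after centring only.

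The depth of the fall differed by role. The 6 ATPases of the 19S base had a median change of -5.26 in log2(FPKM + 1), the 8 lid subunits -3.82 and the 3 other base subunits -2.04, which gave -4.32 over the 17 genes of the 19S particle, 15 of them lower. The 14 core genes had a median of -3.16, all of them lower, with -3.80 in the beta ring and -2.62 in the alpha ring. The chaperones of the 19S particle had a median of -4.20 (3 of 3 lower), and those of the core -3.18 (3 tested, 3 lower). The 3 tested activators had a median of -1.20, with 2 lower. After median centring, 13 genes of the 19S particle were lower and 3 higher, against 7 and 3 of the core.

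The second comparison was that of MII oocytes with BYBX against those with DMSO. Of the 43 genes, 37 were higher with BYBX and 0 lower, beside 65.2% and 0.0326% of all tested entries. The median change was 2.06 against 0.84 over all entries, and over all 50 listed genes 1.71. The 6 genes that did not pass were Psmb6, Psmd1, Psmd3, Psmd11, Psme3 and Psme4. At the same total FPKM, 30 were higher and 1 (Psme4) lower, beside 39.9% and 8.22% of all entries, and after median centring 21 were higher and 6 lower, beside 18.4% and 43.9%. The genes lower after centring were Psmd1, Psmd3, Psmd9, Psmd11, Psme3 and Psme4. Every library with BYBX was above every library with DMSO in 40 of the 43 genes, as in 79.0% of all entries, and the exceptions were Psmd1, Psme3 and Psme4.

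By role, the base ATPases rose by a median of 3.25 in log2(FPKM + 1) with BYBX, the lid by 2.33 (6 of 8 genes higher), the beta ring by 2.33 (6 of 7) and the alpha ring by 1.30 (7 of 7). The core had a median change of 1.91 with 13 of 14 genes higher, and the 19S particle of 2.52 with 14 of 17 higher. The activators had a median of 0.56, with only Psme2b of 3 tested higher. This comparison shares its DMSO libraries with the first, so a gene low in those libraries reads as falling in one and rising in the other.

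Between MII with BYBX and GV, 37 of the 43 genes were lower and 0 higher, beside 69.2% and 0.315% of all entries, with a median change of -1.41 against -0.99. The genes that did not pass were Psma2, Psmd1, Psmd3, Psmd11, Psme3 and Psme4. At the same total FPKM 16 were lower and 3 higher (13.3% and 5.3% of all entries), and after centring 15 and 4 (13.6% and 15.2%). The 19S particle held 10 of the lower genes on both of these scales and the core 2. In 39 of the 43 genes every BYBX library was under every GV library on the deposited scale, as in 82.3% of all entries. Calls were lost without the second BYBX library or either GV library. Each leaves a single library in its group, so only median changes are given here. The median change of the 19S particle was -1.67 without that BYBX library, -1.68 without the first GV library and -1.99 without the second. In the same order, that of the core was -1.06, -1.21 and -1.20. Over all tested entries it was -0.94, -0.84 and -1.14, against -0.99 with every library.

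Among the catalytic subunits, those for trypsin-like and chymotrypsin-like cleavage had a larger fall from GV to DMSO than the one for caspase-like cleavage. Psmb7, the trypsin-like subunit, had 216 and 201 FPKM in the GV libraries, 0.280, 0.899 and 0.412 with DMSO and 88.5 and 43.9 with BYBX. Its DMSO libraries were all under 1 FPKM and its BYBX libraries lay below GV without overlap. In log2(FPKM + 1), the change was -7.12 ± 0.31 (SE, adjusted p = 3.24e-10) from GV to DMSO, the largest fall among the 43 genes. From DMSO to BYBX it was 5.39 ± 0.31 (SE, adjusted p = 3.31e-08), the largest rise. Both rankings hold for that scale, on which changes of low genes are understated. Psmb5, the chymotrypsin-like subunit, had 25.3 and 24.4 FPKM in the GV libraries, 0.279, 0.450 and 0.403 with DMSO and 11.9 and 9.02 with BYBX, with the same order of groups and no overlap. Its change was -4.23 ± 0.22 (SE, adjusted p = 9.64e-10) and then 3.05 ± 0.22 (SE, adjusted p = 1.29e-07), and 40.0% of the 75-base stretches of its transcript also occur in transcripts of other genes, mainly a processed pseudogene, so its level from uniquely mapped reads is uncertain. Psmb6, the caspase-like subunit, had 73.8 and 73.6 FPKM in the GV libraries, 15.3, 29.2 and 31.1 with DMSO and 43.1 and 34.4 with BYBX. Here the DMSO mean was still 34.2% of the GV mean, against 0.254% for Psmb7 and 1.52% for Psmb5. The change of Psmb6 was -1.57 ± 0.31 (SE, adjusted p = 0.000263) from GV to DMSO, and 0.66 ± 0.31 (SE, adjusted p = 0.0747) from DMSO to BYBX, which passed only when the third DMSO library was left out. Its direction turned in all 3 comparisons at the same total FPKM and after centring.

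The ratio of 2 subunits within a library does not depend on the scaling of that library. Psmb7 over Psmb6 was 2.93 and 2.74 in the GV libraries, 0.0182, 0.0308 and 0.0133 with DMSO and 2.05 and 1.28 with BYBX. Psmb5 over Psmb6 was 0.343 and 0.331, 0.0182, 0.0154 and 0.0130 and 0.275 and 0.262. In both ratios the BYBX libraries lay between the other groups without overlap. Psmb7 is at chr2:38588036-38644087 (GRCm38), where it overlaps Nek6, Psmb5 at chr14:54614119-54618022 and Psmb6 at chr11:70525367-70527858. The sources do not state that reads were assigned by strand, so reads in the stretch shared with Nek6 cannot be told apart. Other tested genes of the name rule also overlap a coding gene. They are Psma2, Psma4, Psmc3, Psmc3ip, Psmd1, Psmd5, Psmd9, Psmd13, Psme2b and Psmg3. Their levels are uncertain in the same way, and Psmd1 also shares 75-base stretches with a gene it overlaps.

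The forms that replace these subunits in the immunoproteasome were close to 0. Psmb9, the counterpart of Psmb6, was listed at 0 in all 7 libraries. Psmb8, the counterpart of Psmb5, had 0.0516 FPKM in the first GV library, 0.0223 in the second BYBX library and 0 in the others. Psmb10, the counterpart of Psmb7, had 0.246 and 0.344 FPKM in GV, 0 in every DMSO library and 0.120 and 0.128 with BYBX. In no library did one of them exceed 0.2905% of its constitutive counterpart. Psma8, the alpha subunit of the spermatoproteasome, had 0.382 and 0.0538 FPKM in GV and at most 0.0300 in any MII library. Psmb11, known as the thymus-specific beta subunit, was the highest of these genes with 2.34 and 2.51 FPKM in the GV libraries, 0, 0.00804 and 0.0191 with DMSO and 1.07 and 0.895 with BYBX. It passed as lower in DMSO than in GV (-1.76 ± 0.16 (SE, adjusted p = 1.59e-07)) and as higher with BYBX than with DMSO (0.97 ± 0.16 (SE, adjusted p = 0.000144)). After centring it read as higher in DMSO than in GV. Its DMSO values were near 0, and with 1 added before the log its fall could hardly be larger, so that reading reflects the floor of the scale.

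**Figure D2:**
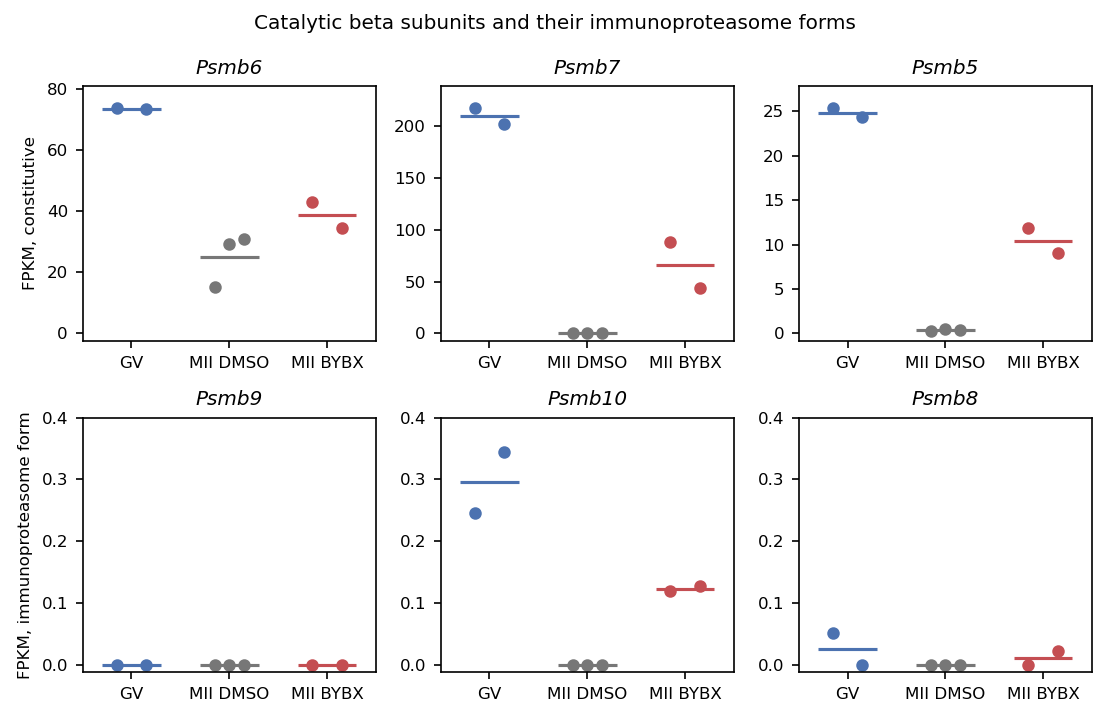
FPKM of the catalytic subunits Psmb6, Psmb7 and Psmb5 (top) and of their immunoproteasome forms Psmb9, Psmb10 and Psmb8 (bottom) in each library, with a line at each group mean (n = 2 GV, 3 MII DMSO, 2 MII BYBX). The axes of the top row differ between genes, and the bottom row ends at 0.4 FPKM; the DMSO points of Psmb7 and Psmb5 lie near 0 while those of Psmb6 lie between 15.3 and 31.1.

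In the rest of the core, Psma2 and Psma6 had the smallest and the largest fall of the alpha ring. Psma2 had 231 and 211 FPKM in the GV libraries, 95.2, 155 and 152 with DMSO and 261 and 175 with BYBX, so the BYBX libraries overlapped with GV and lay above DMSO. Its change was -0.75 ± 0.29 (SE, adjusted p = 0.0248) from GV to DMSO and 0.70 ± 0.29 (SE, adjusted p = 0.0454) from DMSO to BYBX, and both calls were lost without either GV library or without the first DMSO library, the second also without the first BYBX library. Psma6 had 62.1 and 65.1 FPKM in the GV libraries, 0.442, 0.764 and 1.11 with DMSO and 18.2 and 12.7 with BYBX, with changes of -5.20 ± 0.26 (SE, adjusted p = 6.33e-10) and 3.21 ± 0.26 (SE, adjusted p = 2.46e-07). The ratio of Psma6 to Psma2 was 0.269 and 0.308 in GV, 0.00465, 0.00492 and 0.00733 with DMSO and 0.0700 and 0.0725 with BYBX, so that it stayed below GV with BYBX. Psmb3 had the smallest fall of the beta ring, with 69.7 and 67.7 FPKM in the GV libraries, 18.2, 24.0 and 31.6 with DMSO and 43.1 and 39.8 with BYBX and a change of -1.48 ± 0.27 (SE, adjusted p = 0.000153). It also passed as higher with BYBX than with DMSO (0.76 ± 0.27 (SE, adjusted p = 0.0242)), a call that was lost without either BYBX library or without the first or second DMSO library. Of its 75-base stretches 33.1% are shared with other genes' transcripts, all of them pseudogenes. Its change was above 0 from GV to DMSO and below 0 from DMSO to BYBX on both other scales. The other core genes (Psma1, Psma3, Psma4, Psma5, Psma7, Psmb1, Psmb2 and Psmb4) fell by between 2.19 and 4.77 in log2(FPKM + 1) from GV to DMSO and rose by between 1.20 and 2.97 with BYBX, and all passed both tests.

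In the 19S base, all 6 ATPases fell from GV to DMSO, but to unequal depth. Psmc1, which had the largest fall, had 178 and 126 FPKM in the GV libraries, 0.264, 0.614 and 0.484 with DMSO and 23.7 and 34.9 with BYBX, and changes of -6.71 ± 0.27 (SE, adjusted p = 2.56e-10) and 4.36 ± 0.27 (SE, adjusted p = 4.35e-08). Its transcript shares 8.17% of its 75-base stretches with pseudogenes. Psmc6 had the smallest fall, with 62.9 and 52.4 FPKM in the GV libraries, 6.20, 6.98 and 6.84 with DMSO and 20.3 and 24.1 with BYBX and changes of -2.93 ± 0.24 (SE, adjusted p = 5.11e-08) and 1.59 ± 0.24 (SE, adjusted p = 6.16e-05). The ratio of Psmc1 to Psmc6, subunits of 1 ring, was 2.83 and 2.41 in GV, 0.0425, 0.0879 and 0.0708 with DMSO and 1.17 and 1.44 with BYBX. The other 4 (Psmc2, Psmc3, Psmc4 and Psmc5) had DMSO means between 0.356% and 2.05% of GV and BYBX means between 19.6% and 26.1%. All 6 ATPases were lower in DMSO than in GV at the same total FPKM and after centring as well.

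The base subunits without ATPase activity were uneven. Psmd4, the ubiquitin receptor, had 598 and 524 FPKM in the GV libraries, 31.5, 47.7 and 46.9 with DMSO and 169 and 127 with BYBX, and changes of -3.73 ± 0.27 (SE, adjusted p = 1.58e-08) and 1.80 ± 0.27 (SE, adjusted p = 6.13e-05). Psmd1, a large scaffold subunit, had 40.2 and 24.3 FPKM in the GV libraries, 27.5, 20.02 and 15.3 with DMSO and 25.9 and 28.7 with BYBX. Its groups overlapped in each of the 3 comparisons. The change of Psmd1 was -0.59 ± 0.30 (SE, adjusted p = 0.077) from GV to DMSO and 0.40 ± 0.30 (SE, adjusted p = 0.248) from DMSO to BYBX, neither of which passed. It passed as lower in DMSO than in GV without the second GV or the first DMSO library, and as higher at the same total FPKM and after centring. The ratio of Psmd4 to Psmd1 was 14.9 and 21.6 in GV, 1.14, 2.38 and 3.06 with DMSO and 6.53 and 4.42 with BYBX. The remaining base subunit of the group, Psmd2, changed by -2.04 ± 0.27 (SE, adjusted p = 8.3e-06) and 0.80 ± 0.27 (SE, adjusted p = 0.0206), and its call for BYBX against DMSO was lost without the third DMSO or the first BYBX library.

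In the lid, Psmd14, the enzyme that removes ubiquitin from the substrate, had 81.8 and 67.4 FPKM in the GV libraries, 1.15, 0.841 and 0.979 with DMSO and 17.4 and 19.8 with BYBX, with changes of -5.24 ± 0.23 (SE, adjusted p = 3.83e-10) and 3.30 ± 0.23 (SE, adjusted p = 1.03e-07). Psmd6, with the largest fall of the lid, had 56.5 and 46.8 FPKM in the GV libraries, 0.276, 0.418 and 0.427 with DMSO and 11.02 and 12.96 with BYBX, with changes of -5.26 ± 0.23 (SE, adjusted p = 3.29e-10) and 3.24 ± 0.23 (SE, adjusted p = 9.9e-08). Both were lower in DMSO than in GV on all 3 scales. Psmd3 had the change nearest to 0 in the lid, with 87.5 and 62.0 FPKM in the GV libraries, 42.9, 51.3 and 53.4 with DMSO and 86.1 and 60.2 with BYBX. Its DMSO libraries lay under all others, and the BYBX and GV libraries overlapped. The change of Psmd3 was -0.58 ± 0.27 (SE, adjusted p = 0.0579) from GV to DMSO and 0.55 ± 0.27 (SE, adjusted p = 0.0911) from DMSO to BYBX, and neither passed, though the first did, as lower, without the second GV library and without the intensity trend. Psmd6 over Psmd3 was 0.646 and 0.754 in GV, 0.00643, 0.00816 and 0.00799 with DMSO and 0.128 and 0.215 with BYBX. Psmd11 was near Psmd3, with a change of -0.63 ± 0.26 (SE, adjusted p = 0.0357) from GV to DMSO that was lost without either GV library and without the first or the third DMSO library, and 0.49 ± 0.26 (SE, adjusted p = 0.114) from DMSO to BYBX. The other lid subunits (Psmd7, Psmd8, Psmd12 and Psmd13) changed by -5.003 to -3.03 from GV to DMSO and by 1.63 to 3.197 from DMSO to BYBX, and each passed in both.

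Among the assembly chaperones, which guide the rings together and leave the finished particle, Psmg4 had the largest and Psmg1 the smallest fall of the core set. Psmg4 had 43.4 and 44.2 FPKM in the GV libraries, 0.895, 1.42 and 1.25 with DMSO and 18.1 and 10.7 with BYBX, with changes of -4.36 ± 0.26 (SE, adjusted p = 2.58e-09) and 2.78 ± 0.26 (SE, adjusted p = 9.31e-07). Psmg1 had 148 and 136 FPKM in the GV libraries, 25.2, 27.1 and 40.8 with DMSO and 74.97 and 61.2 with BYBX, with changes of -2.19 ± 0.27 (SE, adjusted p = 3.64e-06) and 1.13 ± 0.27 (SE, adjusted p = 0.0025). For the 19S particle, Psmd10, also called gankyrin, had 94.1 and 91.0 FPKM in the GV libraries, 2.22, 3.11 and 2.31 with DMSO and 28.0 and 20.4 with BYBX, with changes of -4.73 ± 0.25 (SE, adjusted p = 9.7e-10) and 2.82 ± 0.25 (SE, adjusted p = 5.8e-07). Psmd9 had 162 and 139.6 FPKM in the GV libraries, 33.7, 33.4 and 43.9 with DMSO and 74.0 and 52.1 with BYBX, with changes of -2.004 ± 0.26 (SE, adjusted p = 6.51e-06) and 0.74 ± 0.26 (SE, adjusted p = 0.024), the second of which was lost without the first or second DMSO library or the first BYBX library. In both sets the chaperone with the smaller fall, Psmg1 or Psmd9, was above 0 from GV to DMSO after centring. Psmg2 was not tested, with at most 0.420 FPKM.

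Among the alternative activators, Psme4 and Psme3 had changes nearer to 0 than the median entry on the deposited scale, and Psme3 still passed as lower in DMSO than in GV. Psme4, the activator PA200 known for the degradation of acetylated histones, had 19.1 and 18.4 FPKM in the GV libraries, 12.7, 15.9 and 13.03 with DMSO and 15.6 and 16.2 with BYBX, with no overlap between GV and either MII group but overlap between the MII groups. Its change was -0.42 ± 0.24 (SE, adjusted p = 0.11) from GV to DMSO and 0.19 ± 0.24 (SE, adjusted p = 0.483) from DMSO to BYBX, and neither passed. Against the typical entry this was a small change, and at the same total FPKM Psme4 passed as higher in DMSO than in GV by 1.36 (adjusted p = 0.000208) and as lower with BYBX than with DMSO, with a change of -0.66 (adjusted p = 0.0226). Psme3, the nuclear activator PA28 gamma, had 65.8 and 62.4 FPKM in the GV libraries, 21.3, 28.5 and 33.3 with DMSO and 52.2 and 31.8 with BYBX, with changes of -1.20 ± 0.29 (SE, adjusted p = 0.00138) and 0.56 ± 0.29 (SE, adjusted p = 0.1), the second of which passed as higher without the second BYBX library and as lower after centring. Psme2b had 5.60 and 5.13 FPKM in the GV libraries, 0.106, 0.202 and 0.307 with DMSO and 1.12 and 1.37 with BYBX, with changes of -2.40 ± 0.18 (SE, adjusted p = 2.44e-08) and 0.90 ± 0.18 (SE, adjusted p = 0.000746). As 60.2% of its 75-base stretches also occur in Psme2, the 2 genes cannot be told apart with certainty. Psme1, the partner of Psme2 in the interferon-inducible activator, was at or under 0.108 FPKM in every library.

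The inhibitor Psmf1, which competes with activators for the core, had 90.6 and 59.0 FPKM in the GV libraries, 1.27, 0.982 and 1.25 with DMSO and 19.03 and 21.2 with BYBX. The groups did not overlap, and the changes were -5.10 ± 0.25 (SE, adjusted p = 6.42e-10) and 3.28 ± 0.25 (SE, adjusted p = 1.84e-07). Psmc3ip, outside the proteasome, had 39.5 and 39.1 FPKM in the GV libraries, 0.0398, 0 and 0 with DMSO and 10.5 and 10.6 with BYBX, with changes of -5.31 ± 0.21 (SE, adjusted p = 2.56e-10) and 3.51 ± 0.21 (SE, adjusted p = 4.24e-08). Its groups did not overlap either, and 2 of its 3 DMSO libraries were listed at 0.

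The proportion of the 2 particles differed between the groups. The core sum was 1724 ± 48.5 FPKM in GV (SD, n = 2), 344 ± 92.7 in MII with DMSO (n = 3) and 881 ± 215 in MII with BYBX (n = 2), and the 19S sum was 1874 ± 275, 174 ± 13.4 and 592 ± 71.9. The ratio of the core sum to the 19S sum was 0.850 and 1.01 in the GV libraries, 1.53, 2.002 and 2.36 with DMSO, and 1.60 and 1.35 with BYBX. Every MII library was above both GV libraries, and the MII groups overlapped. Core and 19S genes together made up 0.782% and 0.838% of the total FPKM in GV, 0.365%, 0.446% and 0.472% with DMSO, and 0.679% and 0.631% with BYBX, with no overlap between the groups.

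**Figure D3:**
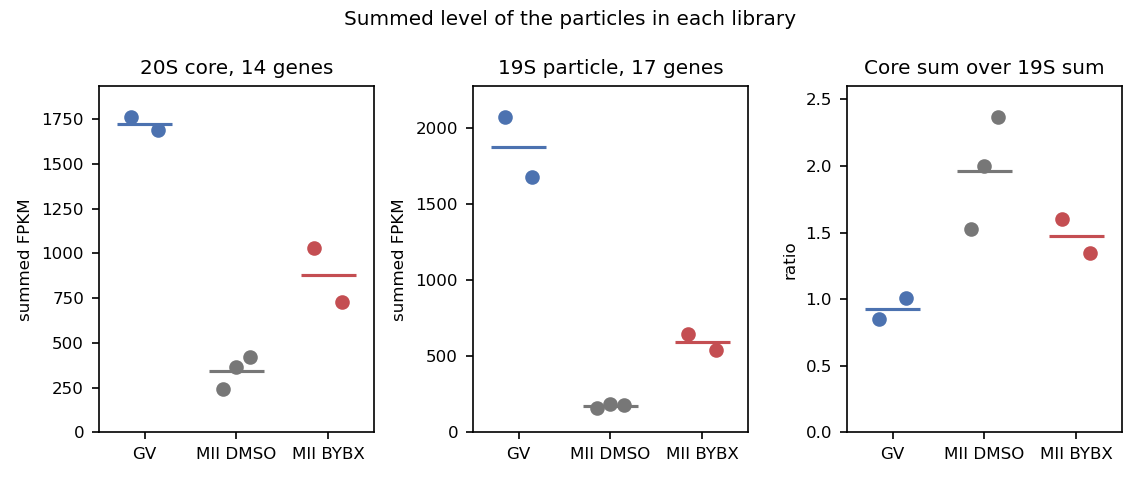
Summed FPKM of the 14 core genes (left) and the 17 genes of the 19S particle (middle), and the ratio of these sums (right), in each library, with a line at each group mean (n = 2 GV, 3 MII DMSO, 2 MII BYBX). Both sums are lowest with DMSO, and the ratio is from 0.850 to 1.01 in GV and from 1.35 to 2.36 in the MII libraries.

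The makeup of each sum was set by different genes in GV and MII. Psma2 made up 13.1% and 12.5% of the core sum in GV, 39.4%, 42.3% and 36.0% with DMSO and 25.2% and 24.0% with BYBX. Psmb7 made up 12.3% and 11.9%, 0.116%, 0.245% and 0.0975% and 8.57% and 6.02%. Psma7 kept a similar share, from 20.6% and 19.4% in GV to 17.3%, 16.0% and 16.3% with DMSO and 15.3% and 16.2% with BYBX. In the 19S particle, Psmd3 went from 4.23% and 3.69% of the sum in GV to 27.1%, 27.9% and 29.9% with DMSO and 13.4% and 11.1% with BYBX, and Psmc1 from 8.604% and 7.53% to 0.167%, 0.334% and 0.271% and 3.68% and 6.44%. Psmd4 kept a share between 19.9% and 31.2% in all 7 libraries.

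**Figure D4:**
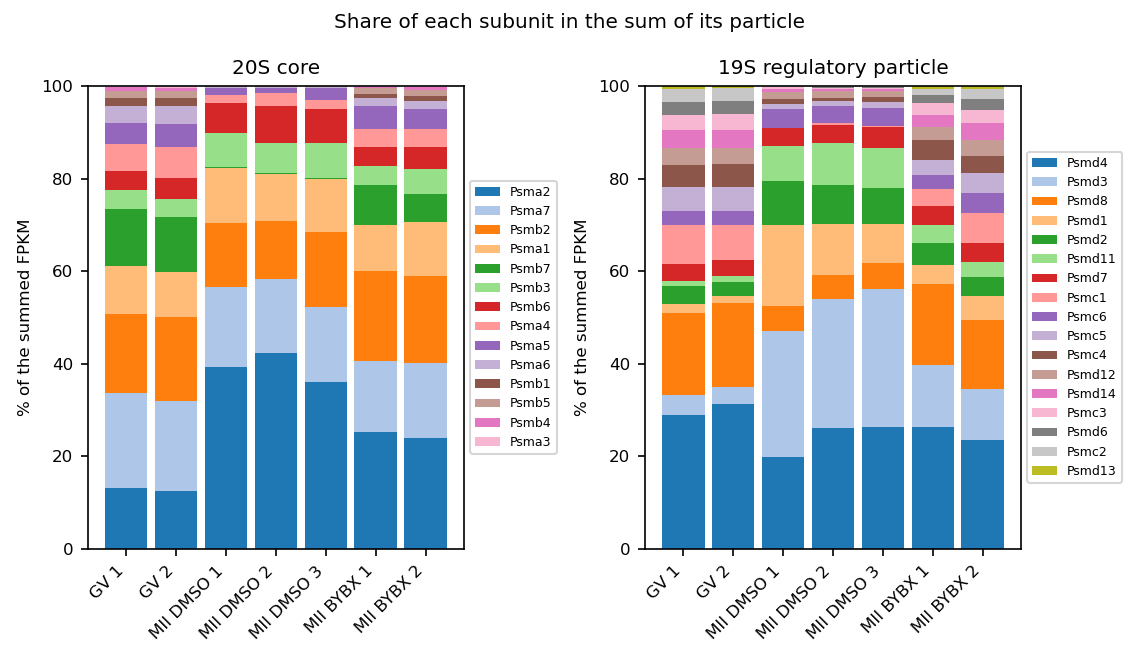
Share of each subunit in the summed FPKM of its particle, as stacked bars in % for each library, for the 20S core (left) and the 19S regulatory particle (right). The segment of Psma2 takes 36.0% to 42.3% of the core with DMSO, against 12.5% and 13.1% in GV, and that of Psmd3 in the 19S particle 27.1% to 29.9% against 3.69% and 4.23%.

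The levels of the 31 subunits spread wider with DMSO. The SD among the subunits in log2(FPKM + 1) was 1.46 and 1.48 in GV, 2.05, 2.19 and 2.25 with DMSO, and 1.64 and 1.43 with BYBX, while that of all tested entries was 1.71 to 1.85 in the 7 libraries. With DMSO, 11, 12 and 11 of the 31 were under 1 FPKM and with BYBX 0. The order of the levels was described by the Spearman rho across genes, which share a library and are not replicates. For the 14 core genes it was 0.829 to 0.877 over the 6 pairs of GV and DMSO libraries and 0.930 to 0.947 over the 4 pairs of GV and BYBX libraries. For the 17 genes of the 19S particle it was 0.162 to 0.299 and 0.527 to 0.708, and between the DMSO libraries 0.968 to 0.985. The order of the 19S genes with DMSO was thus only weakly related to that in GV, while the 3 DMSO libraries had nearly the same order.

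As a measure of where the BYBX libraries lay between the other groups, the rise from DMSO to BYBX was divided by the fall from GV to DMSO, both in mean FPKM. Over the 9026 tested entries with a lower mean in DMSO than in GV, the median was 0.294. It was 0.315 over the core genes, 0.247 over the 19S genes and 0.282 over the 43 tested genes. Psma2 (0.962) and Psmd3 (0.937) had the highest values among the subunits, on a small fall, and Psmc1 (0.190) and Psmc2 (0.193) the lowest.

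Genes of the ubiquitin pathway outside the name rule gave a frame for these values. Of a list of 30, 29 were tested, of which 27 were lower in DMSO than in GV (median change -2.36). From DMSO to BYBX 21 were higher (1.19), and from GV to BYBX 18 were lower (-0.97). These shares of 93.1%, 72.4% and 62.1% were near those of all entries (88.3%, 65.2% and 69.2%), and none passed the opposite way on the deposited scale. From GV to DMSO, 15 were lower and 4 higher at the same total FPKM (beside 49.5% and 23.3% of all entries), and 9 lower and 8 higher after centring (beside 26.7% and 48.8%). Adrm1, the 19S ubiquitin receptor whose symbol the rule misses, had 305 and 235 FPKM in the GV libraries, 4.998, 3.94 and 4.15 with DMSO and 90.5 and 65.3 with BYBX, with changes of -5.65 ± 0.26 (SE, adjusted p = 4.35e-10) and 3.87 ± 0.26 (SE, adjusted p = 7.69e-08). Sem1, a small lid subunit, had 202 and 214 FPKM in the GV libraries, 8.50, 27.0 and 27.8 with DMSO and 141 and 66.2 with BYBX, with changes of -3.41 ± 0.44 (SE, adjusted p = 5.57e-06) and 2.31 ± 0.44 (SE, adjusted p = 0.000458). Pomp, the chaperone of core maturation, changed by -2.72 ± 0.33 (SE, adjusted p = 3.31e-06) and 1.67 ± 0.33 (SE, adjusted p = 0.000655). Nfe2l1, the transcription factor of proteasome genes, changed by -2.16 ± 0.29 (SE, adjusted p = 7.17e-06) and 1.55 ± 0.29 (SE, adjusted p = 0.000354), the first of which was 0.14 after centring. Usp14, a deubiquitinase bound to the 19S base, changed by -4.02 ± 0.23 (SE, adjusted p = 1.68e-09) and 2.23 ± 0.23 (SE, adjusted p = 2.03e-06). Ubb, the polyubiquitin gene with the highest level of the list, had 1091 and 969 FPKM in the GV libraries, 64.8, 69.3 and 85.5 with DMSO and 893 and 422 with BYBX, and did not pass between BYBX and GV (-0.74 ± 0.33 (SE, adjusted p = 0.0609)). Ubqln1, a shuttle of ubiquitinated proteins, and Zfand2a did not pass in any of the 3 comparisons on the deposited scale, with changes from GV to DMSO of -0.41 and -0.22. At the same total FPKM both passed in all 3 with the opposite sign, by 1.45 and 1.52 from GV to DMSO, -0.62 and -0.70 from DMSO to BYBX, and 0.83 and 0.82 from GV to BYBX.

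Since BYBX binds rG4s, the transcripts were searched for a predicted rG4 motif, 4 runs of G, each 3 or more long and 1 to 7 bases apart. One transcript a gene (GENCODE vM21, GRCm38) could be matched for all 50 genes and for 8744 of the 9202 tested entries. A motif was present in 5 of the 43 tested genes (11.6%), against 17.8% of the entries. In 3 of the 5 it lay in the 5′ UTR. These 5′ UTR motifs are shown, as the transcript reads, because BYBX is a ligand of such structures, with the runs of G in capitals.
Psme4, 5′ UTR, chr11:30771860-30771882, plus strand: GGGcagccGGGGcGGGaGGGGGG
Psme4, 5′ UTR, chr11:30771935-30771957, plus strand: GGGGcGGGGGccGGGGccGGGGG
Psma5, 5′ UTR, chr3:108257118-108257137, plus strand: GGGaagcacGGGaGGGcGGG
Psmd5, 5′ UTR, chr2:34870925-34870947, minus strand: GGGcGGGcagacGGGagccaGGG

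The other motifs lay in the 3′ UTR of Psmb11 and Psmd13. Psme4, with the pair of motifs, had the change nearest to 0 of the 43 genes in both comparisons, whereas Psma5 changed by -3.67 ± 0.36 (SE, adjusted p = 3.38e-07) from GV to DMSO and 2.68 ± 0.36 (SE, adjusted p = 2.38e-05) from DMSO to BYBX, and Psmd5, a chaperone of the 19S base, by -4.20 ± 0.26 (SE, adjusted p = 3.62e-09) and 2.56 ± 0.26 (SE, adjusted p = 1.96e-06). Of the 75-base stretches of Psma5, 39.8% also occur in processed pseudogenes, so its level is uncertain too. Over the 5 genes with a motif the median change was -3.33 from GV to DMSO and 2.13 from DMSO to BYBX, and over the 38 without one -3.72 and 2.05. Over all entries it was -1.58 and 0.77 with a motif and -1.89 and 0.86 without one. A match says only that the letters are present.

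Oocyte transcripts whose 3′ UTR ends near a U-rich element are known to be polyadenylated in the cytoplasm during maturation. The element TTTTAT, searched in the sense strand of the last 150 bases, was found in 4 of the 43 genes (9.30%), against 20.1% of the entries. The 4 are shown because they are the only tested genes of the family with this element there, with the element in capitals.
Psma1, 3′ UTR, chr7:114264659-114264688, minus strand: ctataccaatgtTTTTATatgaagaaaata
Psma5, 3′ UTR, chr3:108279910-108279939, plus strand: gtgtgtgtgtttTTTTATgaagtctgtaca
Psmg1, 3′ UTR, chr16:95979966-95979995, minus strand: tgatgttttgtaTTTTATtctggcttggga
Psmg3, 3′ UTR, chr5:139823620-139823649, minus strand: gtgggaagatttTTTTATtaaaaataaatc

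Their median change was -2.68 from GV to DMSO, against -3.73 over the 39 others, and over all entries the medians were -1.30 with the element and -1.97 without. Psma2, Psmd1, Psmd3 and Psme4, whose changes were among the smallest, did not hold it in that window. The transcripts of the family were shorter than most, with a median of 1540 bases against 2862, and the Spearman rho of length with the change from GV to DMSO was 0.229 across the 43 genes and 0.328 across the entries.

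Proteasome genes are known targets of transcription factors that bind the antioxidant response element. Its core, TGACNNNGC on either strand, was searched in the 250 bases before the start of each gene in RefSeq promoters (GRCm38.p6). It was present in 5 of the 47 promoters found for 43 of the 50 genes (10.6%), and in 10.2% of all 32851 promoters. The genes were Psmb5, Psmb6, Psmc6, Psmd9 and Psmd12. Psmb5 and Psmb6 are shown as the catalytic pair whose transcripts had unlike levels in DMSO, with the element in capitals.
Psmb5, promoter, chr14:54618024-54618052, minus strand: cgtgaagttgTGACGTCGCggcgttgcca
Psmb6, promoter, chr11:70525338-70525356, plus strand: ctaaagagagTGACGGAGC

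Both hold the element within 50 bases of the start, while the DMSO mean was 1.52% of GV for Psmb5 and 34.2% for Psmb6.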

How the data were processed

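Smart-seq2 libraries of 10 oocytes (2 GV, 3 MII with DMSO, 2 MII with BYBX, grouped by the sample labels) were primed with oligo-dT, so polyadenylated RNA was read. The authors trimmed reads with Trim Galore 0.6.7, aligned them to mm10 with HISAT2 2.2.1, kept uniquely mapped reads, computed FPKM with Cufflinks 2.2.1 on UCSC gene models, scaled the values by the added ERCC RNA and, across batches, by the GV samples of each batch, and deposited 1 table a library. The scaling factors are not given in the sources used here and whole reads could not be recovered, so the depth is unknown. Of 25912 entries, 4 with a missing value were left out. Unique mapping lowers the level of genes with near-identical copies.

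Changes were tested with limma 3.58.1 (R 4.3.3, intensity trend) on log2(FPKM + 1). The 9202 entries at 1 FPKM or more on average over the 3 groups entered 1 model of all 7 libraries, at a Benjamini-Hochberg adjusted p under 0.05 over all entries. On this scale changes of low genes are understated. Python 3.11.15 was used for the rest. The test was checked on simulated data. Values in every library are given for the catalytic subunits and their immunoproteasome forms, for the largest and smallest change in each role group of at least 3 tested genes, for Psmd4, Psmd14, Psmc3ip, Psme3, Psme4, Psmf1 and Psma8, and for genes that did not pass from GV to DMSO. The genes, role groups and lists were chosen with earlier results of these data known. Alternatives were other scalings, pseudocounts and filters, a replicate block, a fit of 2 groups, no trend, a minimum of 2-fold, leaving out each library, and counts without genes that share sequence. Other assays of the study were not analysed here.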

Additional observations from a re-analysis of the deposited data

How the results depend on the processing

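The precision is set by 2 or 3 libraries a group, since no read depth is known. The counts of called genes stayed within 1.5 times the reported ones under a pseudocount of 0.1, no filter, a filter at 5 FPKM, a fit of only the 2 groups, no intensity trend, a minimum of 2-fold and with each library left out. The scale changed them most. At the same total FPKM 6 genes rose from GV to DMSO, 1 fell from DMSO to BYBX, and 16 fell and 3 rose from GV to BYBX. After median centring 26 fell and 9 rose from GV to DMSO, 21 rose and 6 fell from DMSO to BYBX, and 15 fell and 4 rose from GV to BYBX. The median change of the core from GV to DMSO was -3.89 with a pseudocount of 0.1, -3.67 with a filter at 5 FPKM, -1.73 at the same total and -0.86 after centring, and that of the 19S particle -5.13, -4.66, -2.69 and -2.01, with -4.51 to -4.12 as libraries were left out. The median change over all tested entries moved as well, to -2.53, -2.22, -0.56 and 0.47 in the same order of settings. From DMSO to BYBX the median change of the core was 2.42 with a pseudocount of 0.1, 1.15 at the same total and 0.63 after centring, and that of the 19S particle 3.31, 2.13 and 1.24, and 2.73 with a filter at 5 FPKM. Over all tested entries it was 1.29, 0.34 and -0.44, and 1.07 with that filter. From GV to BYBX, the median change of the core was -0.30 at the same total and -0.18 after centring, and that of the 19S particle -0.82 and -0.78, with -1.99 to -1.67 as libraries were left out. Over all tested entries it was -0.17 at the same total and 0.037 after centring. With only the genes that share under 1% of their 75-base stretches with other genes, chosen after seeing the data, the 19S medians were -5.00 from GV to DMSO and 2.94 from DMSO to BYBX. The ratio of the median core level to the median 19S level was on average 1.20 in GV, 2.93 with DMSO and 1.69 with BYBX, in place of 0.93, 1.96 and 1.48 for the sums.

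In all, 8, 10 and 10 of the 43 genes changed sign at the same total (GV to DMSO, DMSO to BYBX, GV to BYBX) and 13, 14 and 12 after centring. For the genes whose own change in log2(FPKM + 1) is given in the report, the values with the opposite sign follow, and the others were Psma1, Psma3 and Psmb2. From GV to DMSO these were at the same total Psma2 1.13, Psmb3 0.36, Psmb6 0.27, Psmd1 1.22, Psmd11 1.16, Psmd3 1.28, Psme3 0.64 and Psme4 1.36, and after centring Psma2 1.55, Psmb11 0.54, Psmb3 0.83, Psmb6 0.73, Psmd1 1.71, Psmd11 1.68, Psmd2 0.27, Psmd3 1.72, Psmd9 0.30, Psme3 1.102, Psme4 1.89 and Psmg1 0.11. From DMSO to BYBX these were at the same total Psma2 -0.19, Psmb3 -0.11, Psmb6 -0.21, Psmd1 -0.46, Psmd11 -0.37, Psmd2 -0.053, Psmd3 -0.33, Psmd9 -0.13, Psme3 -0.31 and Psme4 -0.66, and after centring Psma2 -0.58, Psmb11 -0.31, Psmb3 -0.52, Psmb6 -0.62, Psmd1 -0.88, Psmd11 -0.79, Psmd2 -0.48, Psmd3 -0.73, Psmd9 -0.53, Psme2b -0.38, Psme3 -0.72, Psme4 -1.09 and Psmg1 -0.15. From GV to BYBX these were at the same total Psma2 0.94, Psmb3 0.26, Psmb6 0.056, Psmd1 0.76, Psmd11 0.80, Psmd3 0.94, Psme3 0.33 and Psme4 0.70, and after centring Psma2 0.98, Psma5 0.036, Psmb11 0.24, Psmb3 0.31, Psmb6 0.11, Psmd1 0.83, Psmd11 0.89, Psmd3 0.99, Psme3 0.39 and Psme4 0.80. As libraries were left out the change from GV to BYBX ran from -0.33 to 0.24 for Psma2, -0.55 to 0.16 for Psmd1, -0.39 to 0.11 for Psmd11 and -0.29 to 0.22 for Psmd3. It was above 0 without the first GV library for Psma2, Psmd1 and Psmd3, and without the second BYBX library for Psma2, Psmd3 and Psmd11. Since each library is divided by a larger or smaller number on those scales, the sign of a change near the typical one is set by the scale.

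With the replicate number as a block (replicate block), 39 genes fell from GV to DMSO, 35 rose from DMSO to BYBX and 36 fell from GV to BYBX, against 40, 37 and 37. Over the 9202 tested entries these counts were 7777, 5266 and 5962, against 8127, 6000 and 6370. Libraries with the same number deviated together in DMSO and GV (correlations of 0.487 and 0.282) but not in BYBX and DMSO (-0.601 and -0.348) or BYBX and GV (-0.330 for both), so the numbers were not taken to pair the libraries. With the numbers of the BYBX libraries crossed, chosen after seeing the data, 38 genes fell and 0 rose from GV to BYBX. Over all tested entries 6688 fell and 57 rose. Leaving out each DMSO library in turn gave 39, 40 and 39 lower genes from GV to DMSO. The same fits gave 34, 35 and 37 higher genes from DMSO to BYBX and 37, 36 and 37 lower genes from GV to BYBX. Over all tested entries they gave 7862, 7930 and 7924, then 5578, 5378 and 5511, then 6392, 6172 and 6204. In the last comparison, Psmb3 lost its call without the second DMSO library. Leaving out a GV or BYBX library leaves a single one in that group. Calls from GV to BYBX lost in such fits were those of Psma1, Psma5, Psmb2, Psmb3, Psmb6, Psmg1 and Psmg3. The causes of these differences were not tested.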
